A study of Mus musculus and Homo sapiens with 352 samples.

Results

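This report is about 249 CTCF anchors whose listed partners lay all on 1 side in one of 2 interaction lists and on both sides in the other. The lists come from CTCF ChIA-PET, an assay in which DNA ends held together by CTCF-bound chromatin are ligated after immunoprecipitation and read as pairs. The cells were CH12, a B cell lymphoma line from mouse. One library was from WT cells and 1 from cells of genotype CTCFmZF9to11, a CTCF mutation named after zinc fingers 9 to 11. The labels do not say whether the mutant cells are 1 clone or whether both alleles carry the change. An anchor is a stretch of DNA at a CTCF peak call where 1 or more interactions end, a partner is the anchor at the other end, and a tag is 1 supporting pair of ends. The lists joined 16928 different anchors, of which 9095 were in both lists, and 1021 of these had 3 to 5 partners in each list. Of the 1021, 163 went from one-sided in wild type to two-sided in the mutant, and 86 were two-sided in wild type and one-sided in the mutant. The other 542 and 230 were one-sided in both and two-sided in both. The 249 anchors were chosen by the sides of their partners in both lists, so their numbers and the absence of their opposite-side interactions from the other list are descriptions.

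CTCF is a DNA-binding protein with a row of zinc fingers, several of which read a directional core motif. Cohesin, the ring complex that extrudes chromatin loops, stops at CTCF mainly when it meets the protein from one face. A CTCF site therefore tends to loop in 1 direction, towards a site whose motif points back at it, and a region that loops in both directions often holds several sites. Zinc fingers 9 to 11 lie near the end of the row and contact DNA beside the core motif at a subset of sites. All coordinates are mm9, with starts counted from 1. No sequence, motif orientation or gene name is given, since no mm9 sequence or annotation was used here.

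There were 11534 wild-type interactions with 74198 tags in all, and 11820 mutant interactions with 82222 tags. Each genotype had 1 ChIA-PET library, so there is no replicate check and no test between genotypes. The 95% intervals (Wilson for shares, order statistics for medians) cover counting error only and treat anchors, interactions and, for shares of tags, single tags as independent. Below, the opposite side of an anchor is the side where it had partners in its two-sided list only, and its same side is the one it used in both lists.

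Change from one side to both was listed more often from wild type to mutant than in reverse. Of 705 eligible anchors with all wild-type partners on 1 side, 163 (23.1%, 20.2 to 26.4) were two-sided in the mutant list. Of 628 with all mutant partners on 1 side, 86 (13.7%, 11.2 to 16.6) were two-sided in the wild-type list. The first number was larger on 16 of the 19 chromosomes with eligible anchors, and the second on chromosomes 11, 12 and 17. Among the 498 anchors with the same number of partners in both lists, 64 (12.9%) and 37 (7.43%) changed in these directions. The mutant list held more tags, and with a minimum of 4 tags in that list alone the numbers were 93 and 73, and the shares 18.98% and 15.5%. The gap between the shares was thus smaller. The first share lay below the interval given above for 23.1%, and the second lay within that for 13.7%. No intervals are given for this setting, so whether its gap exceeds counting error is not shown. With 5 or more tags in both lists, 48 and 12 anchors changed, 24.7% and 7.59% of the one-sided ones.

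The limits on partner numbers were not a sharp edge. Among 784 anchors whose smaller partner number was 3, 15.8% were two-sided in the mutant list only and 8.29% in the wild-type list only. Among the 1210 just outside, with a smaller number of 2 and at most 5, the shares were 19.4% and 9.01%. At the upper limit, 235 anchors with a larger number of 5 gave 22.1% and 6.81%, and the 137 with 6 gave 26.3% and 7.30%.

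The opposite side held few partners and few tags. By the rule, the same side was in use in both lists, though at 2 and 1 anchors with no partner in common. The opposite side consisted of a single partner at 150 of the 163 anchors two-sided in the mutant list only (92.0%) and at 76 of the 86 (88.4%) of the reverse direction, while the rest had 2 partners there. It held a median of 4 tags per anchor (range 3 to 17) in the first direction and 3.5 (3 to 14) in the second. As a share of the anchor's tags this was a median of 14.8% (13.6 to 15.8) and 18.2% (15.8 to 21.4). At anchors two-sided in both lists the side with fewer tags held a median of 21.7% in the mutant list and 20.3% in the wild-type list. The side with most tags stayed the same in both lists at 161 of 163 and 83 of 86 anchors. The 5 exceptions, 2 and 3 by direction, are the anchors above the diagonal in the plot of tags on the 2 sides.

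**Figure D1:**
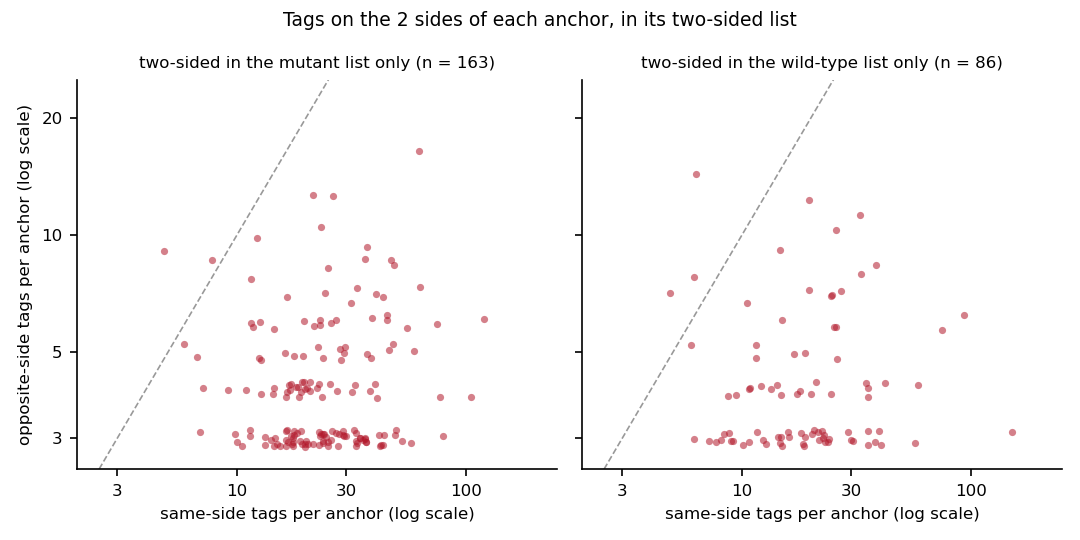
Each point is 1 anchor, with its same-side tags on the x axis and its opposite-side tags on the y axis, both on log scales and in the list where it was two-sided; points are spread slightly so that equal values can be seen, and the dashed line marks equal tags. Most points lie along the bottom at 3 or 4 opposite-side tags, and 2 of 163 and 3 of 86 anchors lie above the line.

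Opposite-side interactions were weak. In the mutant list, the 176 such interactions had a median of 3.5 tags (3 to 4), and 50.0% (42.7 to 57.3) had 3 tags, the fewest that the lists hold. In the wild-type list, the 96 such interactions had a median of 3 tags (3 to 4), and 54.2% (44.2 to 63.8) had 3. The same anchors' same-side interactions in those lists had a median of 6 tags in each direction, with 16.0% and 22.6% at 3 tags. Much of that gap goes with absence from the other list, which the rule requires of every opposite-side interaction. Among same-side interactions that were also missing from the other list, 35.0% (27.1 to 43.7) of 123 and 42.1% (30.2 to 55.0) of 57 had 3 tags. Among all interactions missing from the other list, the shares were 44.6% of 6420 in the mutant list and 45.5% of 6134 in the wild-type list. Interactions with 10 or more tags were 3 of 176 and 1 of 96 on the opposite side, against 7 of 123 and 4 of 57 on the same side among those missing from the other list. These intervals overlap in both directions.

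Opposite-side interactions were also short. Their median span between anchor midpoints was 97.2 kb (81.9 to 132) in the first direction and 78.4 kb (52.0 to 112) in the second. Same-side interactions missing from the other list spanned a median of 181 kb (157 to 214) and 144 kb (91.2 to 209), so the intervals are apart in the first direction and overlap in the second. Under 100 kb were 51.1% (43.8 to 58.4) of opposite-side interactions against 22.8% (16.2 to 30.9) of those same-side ones in the first direction, and 57.3% (47.3 to 66.7) against 42.1% (30.2 to 55.0) in the second. At anchors two-sided in both lists the side with fewer tags was the shorter one too, with medians of 103 kb in the mutant list and 99.3 kb in the wild-type list, against 137 kb and 122 kb on the other side. No other anchor of the same list lay within 39.8% (32.8 to 47.2) and 44.8% (35.2 to 54.8) of opposite-side interactions, and within 14.6% (9.46 to 21.9) and 22.8% (13.8 to 35.2) of same-side interactions missing from the other list. Longer interactions pass over more anchors, so these shares move with span.

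**Figure D2:**
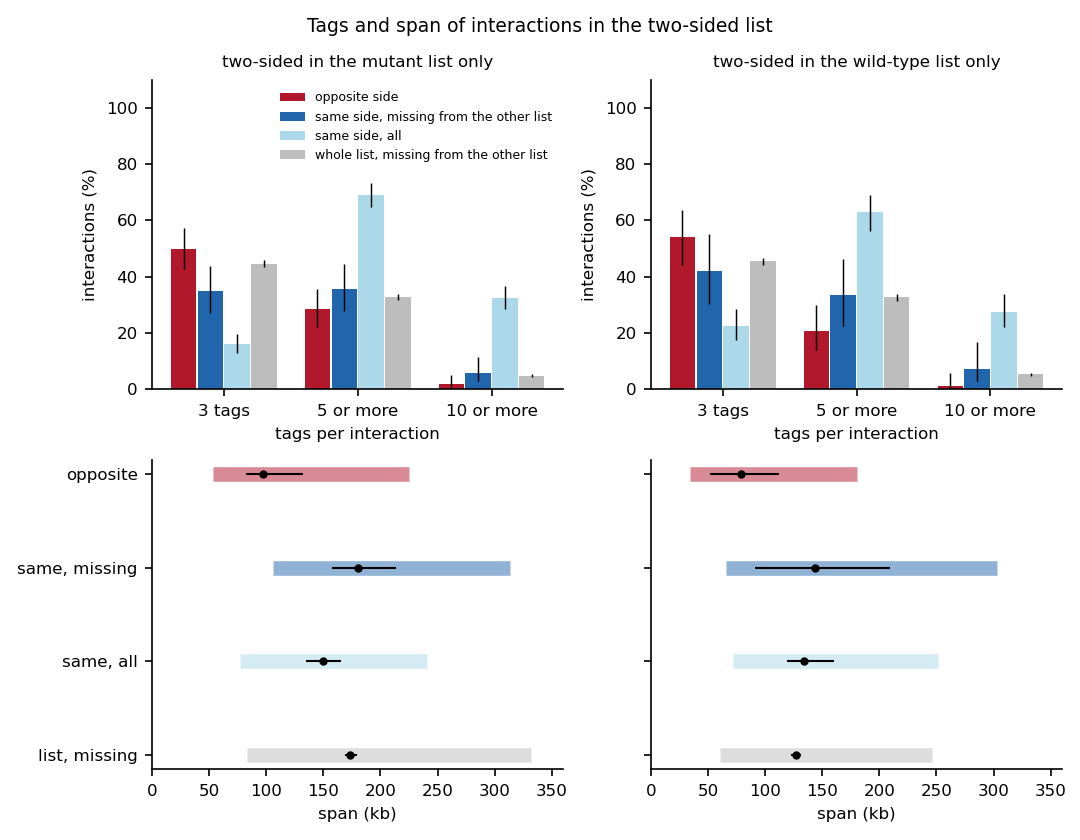
Upper panels show the percent of interactions with 3, 5 or more, and 10 or more tags (bars, with 95% Wilson intervals), and lower panels show span in kb (bar, middle 50% of interactions; point and line, median with its 95% interval), for interactions of the two-sided list. Opposite-side interactions stand far from all same-side interactions in tags (50.0% against 16.0% and 54.2% against 22.6% at 3 tags) and much nearer to those missing from the other list, while their spans are the shortest of the 4 sets in both directions.

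The anchor with most opposite-side tags among those two-sided in the mutant list only was at chr14:70260832-70263000. In the mutant list it reached left to partners 9.05 kb and 40.2 kb away with 7 and 10 tags, neither of which was listed in wild type. To its right it kept a 274 kb interaction with 28 wild-type and 33 mutant tags, and a 234 kb interaction with 8 and 28 tags. The partner 40.2 kb away was an anchor of the mutant list only, and the one at 9.05 kb had 2 other partners in wild type. This anchor overlapped 2 CH12 CTCF peaks. At chr8:28247114-28248177 the 2 left partners, 78.6 kb and 81.9 kb away with 5 and 8 mutant tags, were both anchors in wild type, where they reached other sites. Its strongest same-side interaction had 13 and 15 tags in wild type and mutant.

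A single opposite-side partner made up the next largest cases. At chr5:92431813-92432709 a partner 115 kb to the right had 10 mutant tags and was in no wild-type interaction, while 3 of the 4 left interactions were in both lists. At chr9:77443713-77444767 the left partner, 189 kb away with 9 mutant tags, was also new, and here 3 of 5 wild-type right interactions were missing from the mutant list. At chr11:61317789-61318956 the opposite side held 10 of 22 mutant tags (45.5%), over 115 kb and 210 kb. Above 50% were only 2 anchors of this direction, both on chromosome 18, with 64.3% and 52.9%. Both had fewer same-side tags in the mutant than in wild type. At the second, a 255 kb interaction with 15 wild-type tags was not listed in the mutant.

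The longest opposite-side interactions had few tags. Those of 1059 kb, 1040 kb and 724 kb, from chr3:103186660-103187872, chr9:60705414-60707117 and chr5:24515770-24517737, had 3, 4 and 3 mutant tags, and none of these 3 partners was an anchor in wild type. At the anchors with most tags over both lists the opposite side was minor. At chr13:41397726-41399328 it held 6 of 123 mutant tags (4.88%), at chr11:95119583-95121630 4 tags (3.70%) and at chr19:47430576-47431719 3 tags (5.66%). The 1 opposite-side partner at each of these 3 was also an anchor in wild type. The same side of each held an interaction whose tags differed between the libraries: 22 wild-type and 77 mutant tags over 262 kb at the chromosome 11 anchor (adjusted p = 0.000116 by the exact binomial test), and 71 and 38 tags over 147 kb at the chromosome 19 anchor (adjusted p = 0.0268). At the chromosome 13 anchor a 157 kb interaction had 4 and 29 tags (adjusted p = 0.00537, same test). These anchors were picked for their many tags, which give this test more room to call a difference. Over all interactions, 0.473% passed with more tags in the mutant library and 0.707% with more in the wild-type library. A link between such differences and the change of side was not tested.

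In the reverse direction, the anchor with most opposite-side tags was at chr12:81297882-81300249. In wild type it had 9 and 5 tags to left partners 40.1 kb and 44.3 kb away and 3 tags to each of 2 right partners, so 70.0% of its tags lay on the side not used in the mutant. In the mutant its 3 interactions, with 7, 3 and 3 tags, all went right. It overlapped 2 CH12 CTCF peaks. At chr12:56599709-56600825 a partner 221 kb to the right had 12 wild-type tags, while the 2 left interactions in both lists had 8 and 9 tags and 7 and 12 tags in wild type and mutant. That partner was still an anchor in the mutant list, with 1 interaction.

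At chr3:36341256-36341851 the right partners, at 53.0 kb and 54.3 kb with 7 and 4 wild-type tags, are neighbouring anchors, and both stayed in use in the mutant. At chr17:57473840-57475879 both right partners, at 24.6 kb and 342 kb with 7 and 3 wild-type tags, were gone from the mutant list. Its left side differed as well: a 116 kb interaction had 26 wild-type and 6 mutant tags (adjusted p = 0.0162 by the exact binomial test), and 3 left interactions were listed in the mutant only, with partners that were anchors in wild type too. At chr4:118676511-118678340 a left partner 12.8 kb away had 8 wild-type tags and was still an anchor in the mutant list.

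Another 2 anchors of this direction had over 50% of their wild-type tags on the opposite side. At chr4:151865100-151866149 it was 58.3%, with 4 tags over 1452 kb, the longest opposite-side interaction of the direction, and 3 tags over 28.8 kb. At chr9:64784058-64785958 it was 57.1%, with 8 tags over 23.3 kb. The other long cases were at chr11:99324162-99325322, with 4 tags over 706 kb, and at chr13:111158435-111159606, with 3 tags over 600 kb. The anchors with most tags had again small opposite sides: 5.94% at that chromosome 13 anchor, 2.01% at chr2:148727656-148728831 and 7.89% at chr14:56537171-56538234. At the chromosome 14 anchor a same-side interaction of 96.1 kb had 24 wild-type and 123 mutant tags (adjusted p = 1.48e-11 by the exact binomial test). At the chromosome 13 anchor a same-side interaction of 306 kb had 36 and 12 tags (adjusted p = 0.0166, same test). At the chromosome 2 anchor no interaction passed, and its strongest had 113 and 87 tags (adjusted p = 0.313, same test).

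An anchor of each direction lay within 1 locus on chromosome 2, and they were partners of each other in both lists, 50.0 kb apart with 15 wild-type and 16 mutant tags. The left one, chr2:163613055-163614880, reached only right in wild type, with 5, 15 and 3 tags. In the mutant it also had 13 tags to an anchor 256 kb to its left, 37.1% of its tags. The right one, chr2:163663407-163664531, had right partners 131 kb and 569 kb away in wild type, with 5 and 4 tags, which were 37.5% of its tags. In the mutant its 4 interactions all went left, and 8 tags joined it to the same far left anchor that the first one reached. That far left anchor was in use in wild type too, with 1 interaction. The interactions here that were in 1 list only could not pass the exact binomial test described below. A missing interaction needed at least 18 mutant or 16 wild-type tags to do so.

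**Figure D3:**
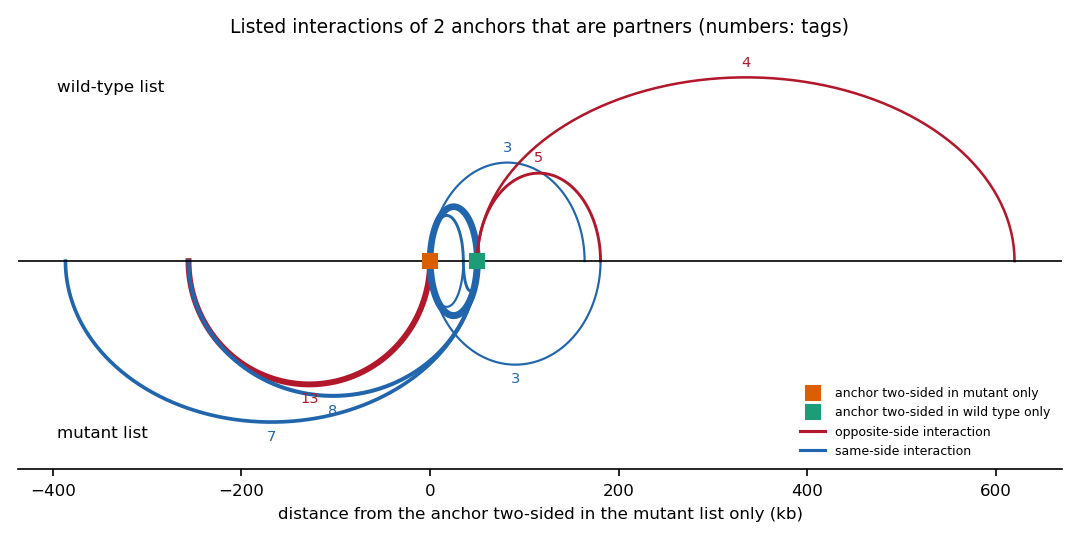
Arcs join the ends of every listed interaction of the 2 chromosome 2 anchors (squares), with wild type above the line and mutant below, distance in kb from the left anchor on the x axis, arc width by tags, and tags written at arcs over 60 kb (the short arcs have 5 and 15 tags above, and 3, 16 and 5 below). In wild type no arc goes left beyond the left anchor, and in the mutant no arc goes right from the right anchor.

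Most opposite-side partners were anchors of the other list as well, where they reached other sites. In the mutant list 134 of 176 (76.1%, 69.3 to 81.8) were also anchors in wild type, and in the wild-type list 65 of 96 (67.7%, 57.8 to 76.2) were also anchors in the mutant. For same-side interactions missing from the other list, the partner was an anchor there in 63.4% (54.6 to 71.4) of 123 and 36.8% (25.5 to 49.8) of 57. The intervals overlap in the first direction and are apart in the second. Over all interactions missing from the other list, counted from ends at anchors of both lists, the shares were 64.5% in the mutant and 44.9% in the wild-type list. With 5 or more tags in both lists the shares for opposite-side partners fell to 64.7% and 53.8%, of 48 and 12 anchors. Under that limit an anchor of the other list also needs an interaction of 5 or more tags there. No comparison set is given at that limit. At 37 of 163 and 26 of 86 anchors no opposite-side partner was an anchor of the other list. Opposite-side partners in use in the other list had a median of 2 partners there, and 94.0% and 90.8% of them had an interaction on the side of the changing anchor. No like share over all anchors is given here, so these values do not set the partners apart.

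Most opposite-side partners faced the anchor they joined. The shares were above those of interactions missing from the other list, but within counting error of those of all listed ends. Of the 145 with another interaction in the mutant list, 69.7% (61.7 to 76.5) had all their others on the side towards the changing anchor and 5.52% (2.82 to 10.5) had all on the far side. Of the 64 in the wild-type list these shares were 81.2% (70.0 to 88.9) and 7.81% (3.38 to 17.0). Partners in same-side interactions missing from the other list faced the anchor in 38.0% (28.1 to 49.0) of 79 and 53.3% (36.1 to 69.8) of 30, and faced away in 31.6% (22.4 to 42.5) and 43.3% (27.4 to 60.8), with intervals apart from the opposite-side ones in both directions. Over all ends of the mutant and wild-type lists, 64.4% and 73.2% of partners faced towards and 12.4% and 11.1% away. Over ends of interactions missing from the other list, at anchors of both lists, 60.0% (58.7 to 61.2) and 66.9% (65.3 to 68.3) faced towards. The intervals of the opposite-side shares facing towards include 64.4% and 73.2%. They lie above the intervals of missing interactions, 58.7 to 61.2 and 65.3 to 68.3. For partners facing away, the interval of the first direction lies below 12.4%, while that of the second includes 11.1%. The facing of a partner uses none of the changing anchor's own interactions, though partners of 1 anchor often join each other.

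**Figure D4:**
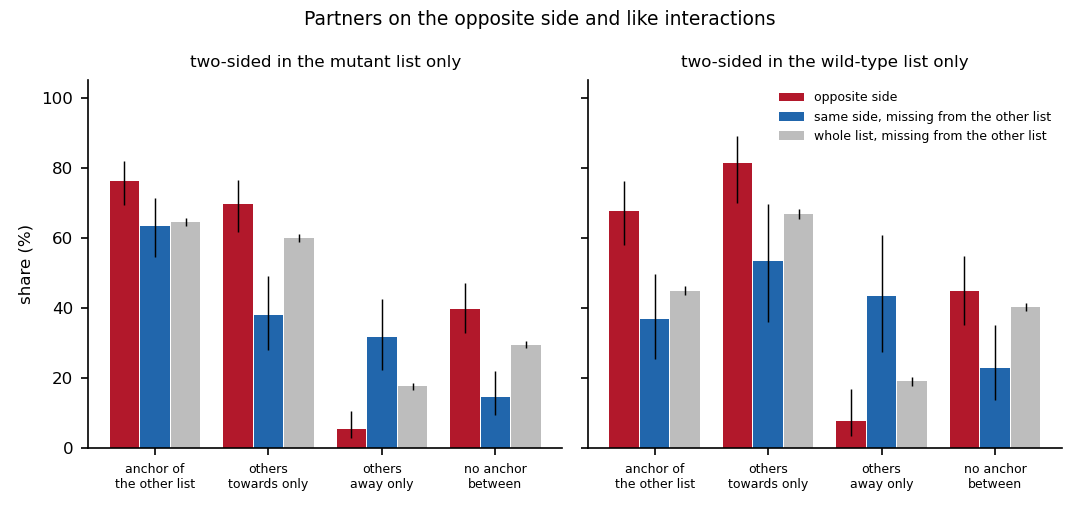
Bars give the percent of interactions, with 95% Wilson intervals, whose partner was an anchor of the other list, had all other interactions towards or away from the anchor, and that had no anchor of the same list between their ends. Opposite-side interactions (red) are above same-side interactions missing from the other list (blue) in both panels, except for partners facing away, where they are below.

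Opposite-side partners were often tied to the other side of the anchor. In the mutant list 90 of 176 (51.1%, 43.8 to 58.4) were also joined directly to a same-side partner of the changing anchor, and in the wild-type list 36 of 96 (37.5%, 28.5 to 47.5). At anchors two-sided in both lists the shares for the side with fewer tags were 58.7% and 54.0%. In the list where the anchor was one-sided, such an interaction passing over it was listed for 38.6% (31.8 to 46.0) and 41.7% (32.3 to 51.7) of the opposite-side partners. At those anchors both flanks were thus joined to each other in the list that held no interaction from the anchor to the opposite flank.

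Same-side interactions of these anchors were shared by the lists more often than interactions in general. Of the 551 same-side interactions in the wild-type list of the first direction, 206 (37.4%, 33.5 to 41.5) were missing from the mutant list, and of the 297 in the mutant list of the second direction, 133 (44.8%, 39.2 to 50.5) were missing from wild type. In the other list were thus 62.6% (58.5 to 66.5) and 55.2% (49.5 to 60.8) of them, against 46.8% of all wild-type and 45.7% of all mutant interactions; anchors with 3 to 5 partners in both lists were chosen for being in use in both. The missing partner was no anchor at all of the two-sided list in 57.3% of the 206 and 36.1% of the 133. Both are close to the complements of the shares given above for all interactions missing from the other list. Same-side partners were fewer in the two-sided list at 86 of 163 and 57 of 86 anchors. Since both partner numbers were limited to 3 to 5, an added opposite-side partner leaves less room on the same side. Anchors one-sided in both lists kept 68.9% of wild-type and 67.3% of mutant interactions. Wild type held 47.8% (46.7 to 48.9) of all same-side tags in the first direction and 42.6% (41.2 to 44.0) in the second, against 47.4% of all listed tags. Tags are grouped within anchors, and a few anchors hold many, so these intervals can be too narrow.

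Other than their own partners, new or lost anchors lay beside these anchors at shares close to those beside anchors one-sided in both lists. A new anchor is one in use in the mutant list only and a lost anchor one in the wild-type list only. Leaving out the anchor's own partners, a new or lost anchor lay within 100 kb on the opposite side at 55.8% (48.2 to 63.2) and 52.3% (41.9 to 62.6) of the changing anchors. At the 542 anchors one-sided in both lists it did so on the unused side at 54.2% (50.0 to 58.4). Taken apart, lost anchors were there at 35.6%, 29.1% and 35.1%, and new ones at 30.7%, 34.9% and 30.4%. On the same side, new or lost anchors were found at 32.5%, 26.7% and 31.0%. Leaving out own partners removes opposite-side partners of the changing anchors, whereas an unused side has none to remove. At any distance, 42 of 176 opposite-side partners were new and 31 of 96 were lost anchors. The opposite-side shares of changing and stable anchors are therefore not fully like for like. The shares depend on the rule for distinct anchors: after merging anchors within 5 kb, 41.4% and 26.8% had one on the opposite side. Interactions can also pass over anchors of the other list. Of the opposite-side interactions, 40.3% and 26.04% passed over an anchor in use only in the list where the changing anchor was one-sided, against 43.9% and 26.5% of all mutant and wild-type interactions. These sets differ in span, with medians of 97.2 and 78.4 kb on the opposite side against 153 and 131 kb in the whole lists. The shares were not compared at like span.

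CTCF peaks at the changing anchors lay between those at the 2 stable classes. Every one of the 249 anchors overlapped a peak of wild-type CH12 cells and a peak of resting and activated B cells, by at least 1 bp. So did all 542 and 230 anchors of the stable classes. Of all anchors, 13329 of 13547 in the wild-type list and 12280 of 12476 in the mutant list overlapped a CH12 peak. For B cell peaks the numbers were 13308 and 12249. The highest CH12 peak at an anchor, ranked by the authors' score within its list, had a median percentile of 88.9 (86.3 to 91.6) at anchors two-sided in the mutant list only and 89.3 (87.1 to 92.0) at those two-sided in the wild-type list only. It was 83.1 (80.6 to 85.5) at anchors one-sided in both lists and 92.3 (90.1 to 93.9) at anchors two-sided in both. The intervals of the changing anchors are apart from the one-sided class and overlap the two-sided class. More than 1 CH12 peak was at 8.59% (5.19 to 13.9) and 11.6% (6.44 to 20.1) of the changing anchors, 6.27% of the stable one-sided and 11.3% of the stable two-sided ones. The number of wild-type tags per anchor ran the same way, with medians of 22 and 23 at changing anchors, 20 at one-sided and 26 at two-sided ones, and its part in the difference was not tested. Anchor width did so too, with medians of 1150 and 1173 bp at changing anchors, 1110 bp at one-sided and 1265 bp at two-sided ones. A wider anchor can overlap more peaks, and the part of width was not tested either. The B cell peaks, ranked by their fold over background, followed this order only in part. Medians were 66.0 (62.4 to 72.4) and 71.0 (65.3 to 76.8) at changing anchors, 69.9 (67.5 to 72.1) at one-sided and 74.4 (71.0 to 77.9) at two-sided ones. The intervals of the changing anchors overlap those of both stable classes. Opposite-side partners that were no anchor of the other list had lower CH12 percentiles, with medians of 77.4 (61.9 to 85.9) and 68.5 (57.5 to 83.7), than those that were, with 84.1 (79.6 to 87.7) and 82.7 (77.5 to 88.5); these intervals overlap. CTCF peaks of the mutant cells were not analysed here.

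**Figure D5:**
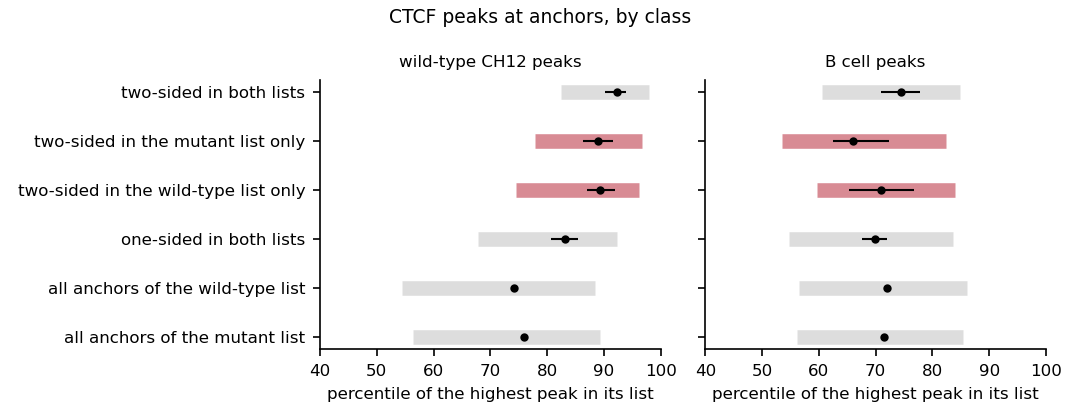
Points and lines give the median percentile, with its 95% interval, of the highest CTCF peak at the anchors of each class, and bars the middle 50% of anchors; the axis starts at 40. In the CH12 list both changing classes (red) lie between the anchors one-sided in both lists, at 83.1, and those two-sided in both, at 92.3. In the B cell list only the class two-sided in the wild-type list lies between them, and the intervals of both changing classes overlap those of the stable ones.

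Tags of single interactions were also compared between the libraries, although for opposite-side interactions the outcome was fixed by their low tags. Each of the 17954 interactions of either list was compared by a two-sided exact binomial test with Benjamini-Hochberg adjustment, where 2 tags, the highest number below the listing limit, stood in for a missing interaction. Of all interactions, 0.473% passed with more tags in the mutant library and 0.707% with more in the wild-type library, which compares 2 libraries and not genotypes. Of the opposite-side interactions, 0 of 176 and 0 of 96 passed, and 3 and 2 had an unadjusted p under 0.05. A missing interaction needed at least 18 mutant or 16 wild-type tags to pass, and the opposite side reached at most 13 and 12, so the test could call none of them and the 0 is no result about them. With missing interactions given 0 tags, 3 of 176 and 5 of 96 passed, beside 361 and 661 of all 17954 interactions in the same directions. The count thus rests on the tags given to missing interactions.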

How the data were processed

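CTCF ChIA-PET interactions of WT and CTCFmZF9to11 CH12 cells (1 library each) and 2 CTCF peak lists were used; the other samples of the series were not analysed here. The value of each interaction is its count of supporting tags, as deposited. Per the file headers, both ends of an interaction lie at CTCF peak calls that have a core motif, at least 3 tags support it, and loops over 2 Mb were left out. The score of each CH12 peak (peak names start with MACS) and the fold over background of each B cell peak (narrowPeak layout) were deposited by the authors. The submitters' processing notes give build mm9 and name CASAVA 1.8.2, BWA, Bowtie 1.1.1, bedtools 2.25 and SAMtools 1.2, without roles. The interaction caller, and whose peak calls set the anchors, were not stated, so a missing peak call can remove an interaction just as few tags can. Interactions under 3 tags are not listed, and the total depth of each library is unknown.

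Anchors were taken as named in the lists. One with 3 to 5 partners in each list was one-sided where all partners lay on 1 side. Anchors to name were, per direction, the 6 with most opposite-side tags and 3 each with the largest opposite-side share, the longest opposite-side interaction and the most tags; those on chromosome 18 are given without position. Peaks were at an anchor if they overlapped by 1 bp. The members and the comparisons were chosen with earlier results of these data known; the comparison with same-side interactions missing from the other list was added after values were seen. Scripts were tested on simulated data. The tools were Python 3.11.15 with scipy 1.17.1, numpy 2.4.6, matplotlib 3.10.9 and pandas 2.3.3.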

Additional observations from a re-analysis of the deposited data

How the results depend on the processing

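Values below give anchors two-sided in the mutant list only first and those two-sided in the wild-type list only second. Of 106 recomputed values, 71 stayed within 1.5 times the count or within the interval reported; under all 8 settings of partners, tags, merging and span the wild-type share was the larger. With 3 or more partners the wild-type share was 27.5%. With 4 to 5 partners, 39 and 21 anchors changed (28.3% and 17.5%). With 4 or more tags, 75 and 27 changed, 9.09% in the second direction; median tags were 5 and 4.5, the first direction's partners were anchors of the other list in 64.0%, and 33.3% of the second direction had a new or lost neighbour. With 5 or more tags, 48 and 12 changed (7.59% in the second), median tags were 6 in both, 64.7% and 53.8% of partners were anchors of the other list, and 33.3% of the second direction had such a neighbour. Higher tag limits raise median tags by construction and leave fewer anchors in the other list for partners to match. After merging within 5 kb the shares were 28.6% and 18.5%, and neighbours 41.4% and 26.8%. Allowing 10% of tags on the minor side gave 18.6% for wild type. With 4 or more tags in the mutant list alone, added after the data were seen, 93 anchors changed in the first direction (18.98%), with a median of 5 tags, and 41.1% of the second had such a neighbour. That setting gave the smallest gap between the wild-type and mutant shares, 18.98% against 15.5%. Windows of 50 kb gave neighbours at 37.4% and 37.2%, and of 200 kb at 76.7% and 64.0%. Giving missing interactions 0 tags let 3 and 5 opposite-side interactions pass the binomial test, beside 361 and 661 of all 17954 interactions. Elsewhere the cause of a shift was not tested. No paired analysis was possible because each genotype had 1 ChIA-PET library. Depth is one limit on single interactions, since 50.0% and 54.2% of opposite-side interactions had 3 tags.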
